A study of Homo sapiens with 4 samples.

Results

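The enzymes that make purine and pyrimidine nucleotides were followed in U937 cells, an established human monocytic leukemia line. The set held 35 genes, chosen by their place in the synthesis, salvage and phosphorylation steps and matched to the table by gene symbol through the GENCODE annotation. Of these, 34 had a row among the 17656 genes of the table, and all 34 passed the filter of at least 1 TPM (transcripts scaled to a fixed total per library) in 2 or more libraries, which left 14582 tested genes. CTPS2, the second CTP synthetase gene, was not analysed here. RNA-seq was compared between 2 libraries labelled sh-ZNF217, which the labels call a knockdown of the zinc finger gene ZNF217, and 2 NC libraries, which the labels call U937 cells without treatment. The text of the study instead speaks of a CRISPR-Cas9 knockout for its U937 sequencing, and whether a group was 1 clone or a pool is not given in the sources used here. Whether replicates were grown as separate cultures is not labelled, so all p-values measure only the spread between these libraries, which may be technical.

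Purine nucleotides are built stepwise on phosphoribosyl pyrophosphate (PRPP) until the ring of inosine monophosphate (IMP) is closed, and IMP is then turned into AMP or GMP. Pyrimidines are assembled as a free ring that is later joined to PRPP, and salvage enzymes return free bases and nucleosides to the nucleotide pool. Ribonucleotide reductase makes deoxynucleotides for DNA synthesis, so several of these genes are known to be most active in cycling cells, and the pathway is a long-standing drug target in leukemia.

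The mRNA of ZNF217 itself differed little between the groups and did not pass the test. It stood at 35.8 and 35.0 TPM in libraries labelled sh-ZNF217, against 36.1 and 36.7 TPM in NC (log2 fold change -0.04, SE 0.07, limma adjusted p = 0.74), so the groups are called by their labels throughout. Markers of the line's type were present in all libraries: the summed level of 15 myelomonocytic markers was 7073 and 7015 TPM in libraries labelled sh-ZNF217, against 4847 and 4818 TPM in NC, most of it from LYZ, while the defining granule gene MPO was below 1 TPM in all 4. The list moved both ways: of the 14 tested, 6 rose and 2 fell (ELANE and PRTN3) at a limma adjusted p below 0.05. Over all tested genes 9.77% rose and 7.11% fell. Of 8 T and NK cell markers 3 were in the table (summed level 102 and 113 TPM in libraries labelled sh-ZNF217, against 87.1 and 70.1 TPM in NC, mostly NKG7), of 6 B cell markers 4, of 8 erythroid and megakaryocyte markers 2, and of 8 epithelial and fibroblast markers 0. The mitochondrially encoded share of all TPM was 12.5% and 12.7% in libraries labelled sh-ZNF217, against 9.98% and 10.8% in NC.

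Most nucleotide synthesis enzymes were measured at lower levels in the libraries labelled sh-ZNF217, by modest amounts. At an adjusted p below 0.05, 10 of the 34 members fell (PRPS1, PAICS, ATIC, IMPDH2, APRT, CTPS1, NME1, TYMS, TK1 and DCTPP1), against 7.11% of all tested genes that fell, and 1 rose (RRM2B), against 9.77% of all tested genes that rose. The members are abundant, with 31 of the 34 at a mean of 30 TPM or more, and among the 5257 genes at that level 14.5% fell. Relative to NC, the mean TPM of the 10 members fell by 17.4% (PRPS1) to 28.1% (NME1), and that of RRM2B rose by 45.1%. Under the stricter rule that also asks for a log2 fold change past 0.5 in size, the rule used for the word "changed" below, 0 members were lower (2.46% of all tested genes were) and RRM2B was the 1 member higher (6.26% of all tested genes were), which in either direction is 1 of 34 beside 8.72% of all tested genes. In the same limma fit, 21 members were lower and 3 higher at an unadjusted p below 0.05, beside 15.5% and 18.9% of all tested genes.

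Looking at the libraries rather than at the test, both libraries labelled sh-ZNF217 lay below both NC libraries for 25 of the 34 members, an arrangement found for 28.6% of all tested genes. The opposite arrangement held for 5 members (ADK, CMPK1, RRM2B, DCK and GUK1), against 33.5% of all tested genes, and the remaining 4 overlapped (ADSS1, CAD, NME2 and TK2). The median log2 fold change of the members was -0.25, with a range of -0.47 to 0.52, beside a median of 0.02 over all tested genes and of -0.04 over those at 30 TPM or more. A negative value was found for 27 of the 34 members, 47.5% of all tested genes and 56.2% of those at 30 TPM or more. The shares of both arrangements were not taken at that level. The sum over all members was 3871 and 3689.6 TPM in libraries labelled sh-ZNF217, against 4438 and 4332 TPM in NC. In a bulk sample, fewer cells of a type and less RNA per cell cannot be told apart.

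How many members passed the test depended on single libraries. The number of changed genes over all tested genes also dropped whenever 1 library was left out. Without replicate 1 or without replicate 2 of the libraries labelled sh-ZNF217, 2 members fell and 0 rose by the limma adjusted p (at an unadjusted p below 0.05, 17 members were lower without the first and 14 without the second, and 2 were higher in each case), while 5 fell and 1 rose without NC replicate 1, and 7 fell and 1 rose without NC replicate 2. Without the mitochondrially encoded genes, whose share moved with the groups, 6 members fell and 1 rose, and the median was -0.22. Of all tested genes, 293 were then lower by the stricter rule in place of 359, and 1041 were higher in place of 913. With limma's plain variance model, which uses no trend and is not robust, 0 members passed the adjusted p, while 15 were lower and 1 higher at an unadjusted p below 0.05. Fewer of all tested genes changed with that model too. The shares of all tested genes that fell or rose with no fold minimum are not given here for these fits. A loss particular to the members therefore cannot be told from a general one.

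**Figure D1:**
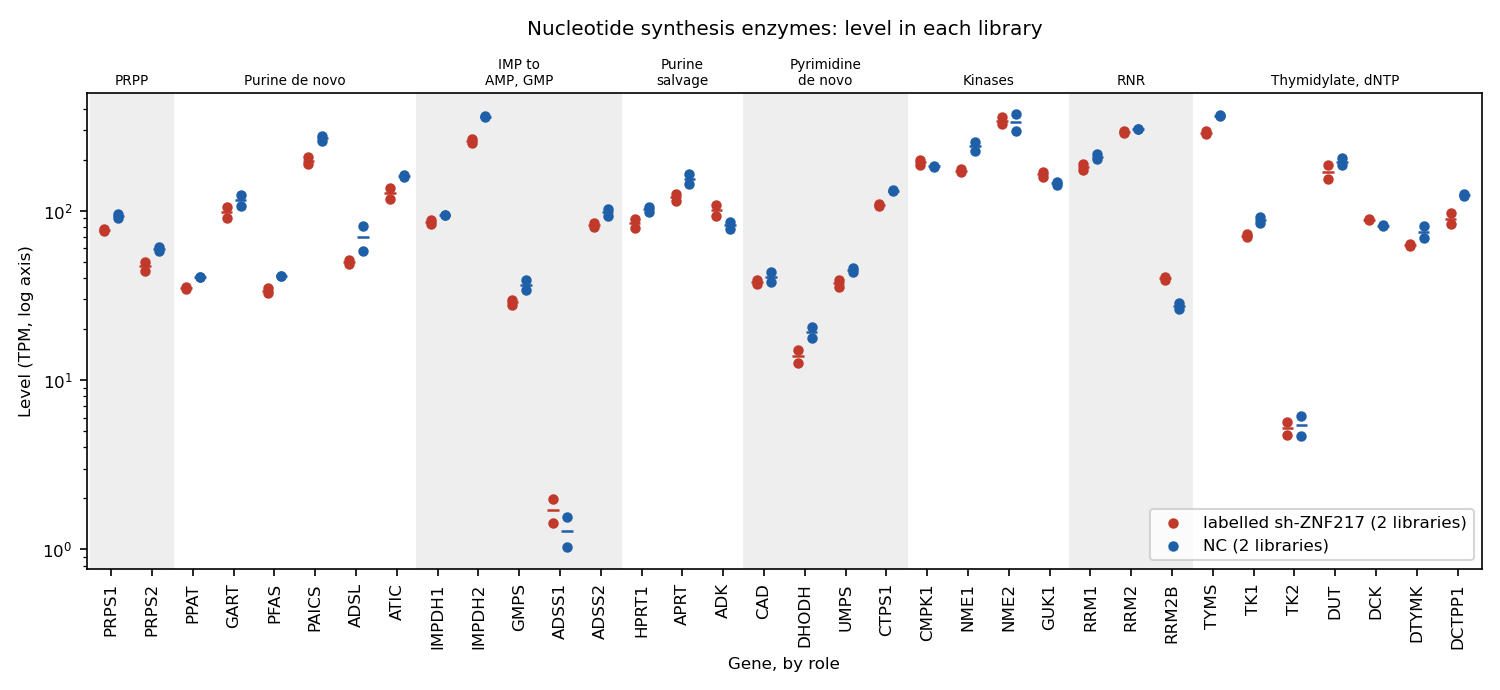
Level of each of the 34 measured nucleotide synthesis enzymes in each library, in TPM on a log axis, with genes ordered by role; each point is 1 library (2 labelled sh-ZNF217, 2 NC) and each short line is the mean of a group. Points of the libraries labelled sh-ZNF217 lie below both NC points for 25 genes and above both for 5, and levels run from 1.03 TPM for ADSS1 to 370.1 TPM for NME2, both in NC libraries.

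PRPP, the sugar phosphate that both pathways draw on, is made by the synthetases PRPS1 and PRPS2. PRPS1 (chrX:107628428-107651993, hg38, as are all positions here) had 76.0 and 77.7 TPM in libraries labelled sh-ZNF217, against 95.6 and 90.6 TPM in NC, and fell by 0.27 on the log2 scale (SE 0.06, limma adjusted p = 0.0381). PRPS2 had 49.98 and 43.8 TPM in libraries labelled sh-ZNF217, against 57.7 and 61.0 TPM in NC (log2 fold change -0.34, adjusted p = 0.0532), and did not pass. Neither gene overlapped between the groups. The call for PRPS1 was lost whichever of the 4 libraries was left out, with adjusted p between 0.0696 and 0.142. The 2 genes for PRPP synthetase associated proteins, which bind these enzymes, had a median log2 fold change of -0.16, and neither passed the test.

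All 6 genes of the purine ring pathway had lower levels in both libraries labelled sh-ZNF217 than in both NC libraries, an arrangement found for 28.6% of all tested genes. Of the 6, 2 passed the test, while 7.11% of all tested genes fell and 14.5% of those at 30 TPM or more. The summed level of the 6 genes was 565 and 517 TPM in libraries labelled sh-ZNF217, against 668 and 721 TPM in NC. PAICS (chr4:56435741-56464578), which joins carboxylase and ligase activities in the middle of the pathway, had 207 and 188 TPM in libraries labelled sh-ZNF217, against 259 and 276 TPM in NC, the most abundant of the 6. It fell by 0.44 on the log2 scale (SE 0.07, limma adjusted p = 0.0156), and the call was lost without replicate 2 of the libraries labelled sh-ZNF217 (-0.37, adjusted p = 0.0688). ATIC (chr2:215311956-215349773), which closes the ring of IMP, had 136 and 117 TPM in libraries labelled sh-ZNF217, against 162 and 158 TPM in NC. It fell by 0.34 on the log2 scale (SE 0.08, adjusted p = 0.0440), a call lost whichever of the 4 libraries was left out (adjusted p from 0.0511 to 0.123).

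The other 4 ring enzymes missed the threshold. PPAT, the amidotransferase that commits PRPP to the pathway, had 35.5 and 34.4 TPM in libraries labelled sh-ZNF217, against 40.7 and 40.9 TPM in NC (log2 fold change -0.22, limma adjusted p = 0.0888). PFAS, which adds nitrogen from glutamine, had 32.7 and 34.8 TPM in libraries labelled sh-ZNF217, against 41.0 and 41.3 TPM in NC (-0.28, adjusted p = 0.0545). Both were tight within groups, with gaps between the groups wider than the gap within either. GART, a trifunctional enzyme that uses folate, had 105 and 90.7 TPM in libraries labelled sh-ZNF217, against 107 and 123 TPM in NC (-0.23, adjusted p = 0.171). ADSL, which releases fumarate at a step of the ring pathway and again on the way to AMP, had 48.6 and 51.3 TPM in libraries labelled sh-ZNF217, against 58.2 and 81.2 TPM in NC (-0.45, adjusted p = 0.103), and without NC replicate 1 it passed (-0.69, adjusted p = 0.0113).

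PAICS and PPAT start head to head on chromosome 4, with 125 bases between the GENCODE gene starts, and are shown because the neighbours share this stretch. The ratio of PAICS to PPAT was 5.84 and 5.47 in libraries labelled sh-ZNF217, against 6.37 and 6.77 in NC, a ratio chosen after the values were seen. The interval lies at chr4:56435616-56435740 (hg38, plus strand, PAICS to the right) and was read from a RefSeq promoter window (GRCh38.p14).
PPAT-PAICS interval: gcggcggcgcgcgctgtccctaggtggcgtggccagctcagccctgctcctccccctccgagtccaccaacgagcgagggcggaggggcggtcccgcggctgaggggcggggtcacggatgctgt

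RefSeq promoter windows, running from 250 bases before to 50 bases after an annotated start, were found for 32 of the 35 listed genes and searched for the E-box CACGTG, the palindrome that MYC and related factors bind. It occurred in windows of 7 members (21.9%), against 12.9% of 9483 tested genes with a window. Counted per window and not per gene, an unlike measure, it was in 7.26% of all 35116 windows. The 7 members were ATIC, DCTPP1, NME1, PAICS, PPAT, DCK and DHODH, of which the first 4 fell at an adjusted p below 0.05. So did 10 of the 34 members and 7.11% of all tested genes. Of the members that fell, PRPS1, APRT, CTPS1, TYMS and TK1 had no E-box in their windows, and IMPDH2 had no window. The share that fell among all genes with an E-box was not taken, so a link between the E-box and the fall was not tested. The windows of PAICS and PPAT share 1 and the same E-box. It is shown here with an ATIC site, since PAICS and ATIC are ring enzymes that fell, and capitals mark the E-box. The ATIC stretch (chr2:215312001-215312030, hg38, plus strand) has an E-box beginning 46 bases before the start of the gene's canonical GENCODE transcript. Another E-box of the ATIC window, at base 30 from its RefSeq start, is not printed. The PAICS stretch (chr4:56435780-56435801, plus strand) has its E-box 41 bases after a RefSeq start and before the canonical one.
ATIC E-box: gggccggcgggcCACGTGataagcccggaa
PAICS E-box: ctgtatttgctgCACGTGgaaa

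At the branch from IMP, the guanine side held the fall with the smallest adjusted p of the 34 members. IMPDH2 (chr3:49024325-49029447), the IMP dehydrogenase that limits the supply of guanine nucleotides, had 266 and 251 TPM in libraries labelled sh-ZNF217, against 360.0 and 358 TPM in NC. The mean was 258 ± 10.2 TPM against 359 ± 1.37 TPM in NC (SD, n = 2 each), a difference of -28.02%, and it fell by 0.47 on the log2 scale (SE 0.05, limma adjusted p = 0.0069). It passed whichever library was left out (adjusted p from 0.0149 to 0.0483). Another annotated gene on the same strand, with no row in the table, shares 32.8% of its exon bases. IMPDH1, its paralog, had 83.9 and 87.6 TPM in libraries labelled sh-ZNF217, against 94.5 and 94.3 TPM in NC (-0.14, SE 0.06, adjusted p = 0.160), and did not pass. GMPS, which turns the product into GMP, had 29.5 and 27.9 TPM in libraries labelled sh-ZNF217, against 34.04 and 38.7 TPM in NC (-0.33, adjusted p = 0.0658).

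On the adenine side, neither adenylosuccinate synthase gene passed. ADSS2, the main form outside muscle, had 80.6 and 84.7 TPM in libraries labelled sh-ZNF217, against 93.0 and 103 TPM in NC (log2 fold change -0.24, SE 0.07, limma adjusted p = 0.0775), with no overlap. ADSS1, the muscle form, was close to the filter at 1.99 and 1.43 TPM in libraries labelled sh-ZNF217, against 1.55 and 1.03 TPM in NC (0.24, SE 0.26, adjusted p = 0.565), and overlapped.

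Purine salvage did not move as a block. APRT (chr16:88809339-88811937), which salvages adenine, had 126 and 114 TPM in libraries labelled sh-ZNF217, against 164 and 144 TPM in NC, and fell by 0.36 on the log2 scale (SE 0.08, limma adjusted p = 0.0436). That call was kept without NC replicate 2 (adjusted p = 0.0308) and lost without each of the other 3 libraries, up to 0.160. HPRT1, which salvages hypoxanthine and guanine, had 89.5 and 79.1 TPM in libraries labelled sh-ZNF217, against 105 and 98.8 TPM in NC (-0.27, adjusted p = 0.0728). ADK, the adenosine kinase, stood on the other side, with 108 and 93.0 TPM in libraries labelled sh-ZNF217 above 85.7 and 78.2 TPM in NC (0.29, adjusted p = 0.0890), and did not pass either.

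In the pyrimidine pathway the last step fell. CTPS1 (chr1:40979300-41012565), which makes CTP from UTP, had 109 and 106 TPM in libraries labelled sh-ZNF217, against 130.4 and 133 TPM in NC, and fell by 0.28 on the log2 scale (SE 0.05, limma adjusted p = 0.0252). Its groups were far apart for their spread, yet the call was lost whichever library was left out (adjusted p from 0.0707 to 0.0990). DHODH, the mitochondrial enzyme that oxidises the ring, had 12.6 and 15.1 TPM in libraries labelled sh-ZNF217, against 20.5 and 17.8 TPM in NC (-0.44, adjusted p = 0.0747). UMPS, which joins the ring to PRPP, had 39.2 and 35.4 TPM in libraries labelled sh-ZNF217, against 45.9 and 43.7 TPM in NC (-0.26, adjusted p = 0.0855). Neither overlapped between the groups. CAD, the trifunctional enzyme that opens the pathway, did overlap, with 38.9 and 36.8 TPM in libraries labelled sh-ZNF217, against 43.6 and 37.7 TPM in NC (-0.10, adjusted p = 0.514), and the interval of its difference runs from -20.6% to 9.94%.

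Among the nucleotide kinases, 1 of 4 fell, beside 7.11% of all tested genes and 14.5% of those at 30 TPM or more. NME1 (chr17:51153559-51162428), a nucleoside diphosphate kinase, had 169 and 175 TPM in libraries labelled sh-ZNF217, against 256 and 224 TPM in NC. It fell by 0.47 on the log2 scale (SE 0.08, limma adjusted p = 0.0165), a call lost without replicate 1 (adjusted p = 0.0847) or replicate 2 (0.0713) of the libraries labelled sh-ZNF217. Its neighbour and paralog NME2 had 357 and 323 TPM in libraries labelled sh-ZNF217, against 370.1 and 297 TPM in NC (0.03, SE 0.11, adjusted p = 0.861), and its sign turned without NC replicate 2 (-0.12) or without replicate 1 of the libraries labelled sh-ZNF217 (-0.04). A read-through gene, NME1-NME2, shares 18.7% of the exon bases of NME1 and 24.2% of those of NME2, so the split of reads among these rows is uncertain. That row had 220.0 and 274 TPM in libraries labelled sh-ZNF217, against 368 and 412 TPM in NC (-0.66, adjusted p = 0.0200), and the 3 rows together summed to 746 and 772 TPM, against 994 and 932 TPM in NC. The E-box of NME1 is shown for comparison with the ring enzymes; it lies in the untranslated part of exon 1, 35 bases from the start (chr17:51153581-51153608, hg38, plus strand, E-box in capitals).
NME1 E-box: agtgctgcgaacCACGTGggtcccgggc

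The other 2 kinases had higher levels in the libraries labelled sh-ZNF217 but did not pass. GUK1, which phosphorylates GMP, had 159 and 169 TPM in libraries labelled sh-ZNF217, against 149 and 143 TPM in NC (log2 fold change 0.17, limma adjusted p = 0.110). CMPK1, which phosphorylates UMP and CMP, had 199.8 and 187 TPM in libraries labelled sh-ZNF217, against 182 and 184 TPM in NC (0.08, adjusted p = 0.390).

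Ribonucleotide reductase held the 1 member that rose. RRM2B (chr8:102204502-102238961), the small subunit known to be induced through p53 and to serve resting cells, had 40.7 and 39.1 TPM in libraries labelled sh-ZNF217, against 28.6 and 26.4 TPM in NC. The mean was 39.9 ± 1.13 TPM against 27.5 ± 1.55 TPM in NC (SD, n = 2 each). It rose by 0.52 on the log2 scale (SE 0.08, limma adjusted p = 0.0152), and the interval of the difference runs from 24.9% to 65.0%. The adjusted p was 0.0790 without replicate 1 and 0.0667 without replicate 2 of the libraries labelled sh-ZNF217, and the log2 fold changes of 0.49 without the first of these and 0.47 without NC replicate 2 were below the fold minimum. RRM2, the small subunit of dividing cells and far more abundant, had 294 and 288 TPM in libraries labelled sh-ZNF217, against 303 and 305 TPM in NC (-0.06, SE 0.05, adjusted p = 0.398), with an interval from -11.7% to 3.799%. RRM1, the large subunit, had 188 and 174 TPM in libraries labelled sh-ZNF217, against 202 and 216 TPM in NC (-0.21, adjusted p = 0.0859).

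**Figure D2:**
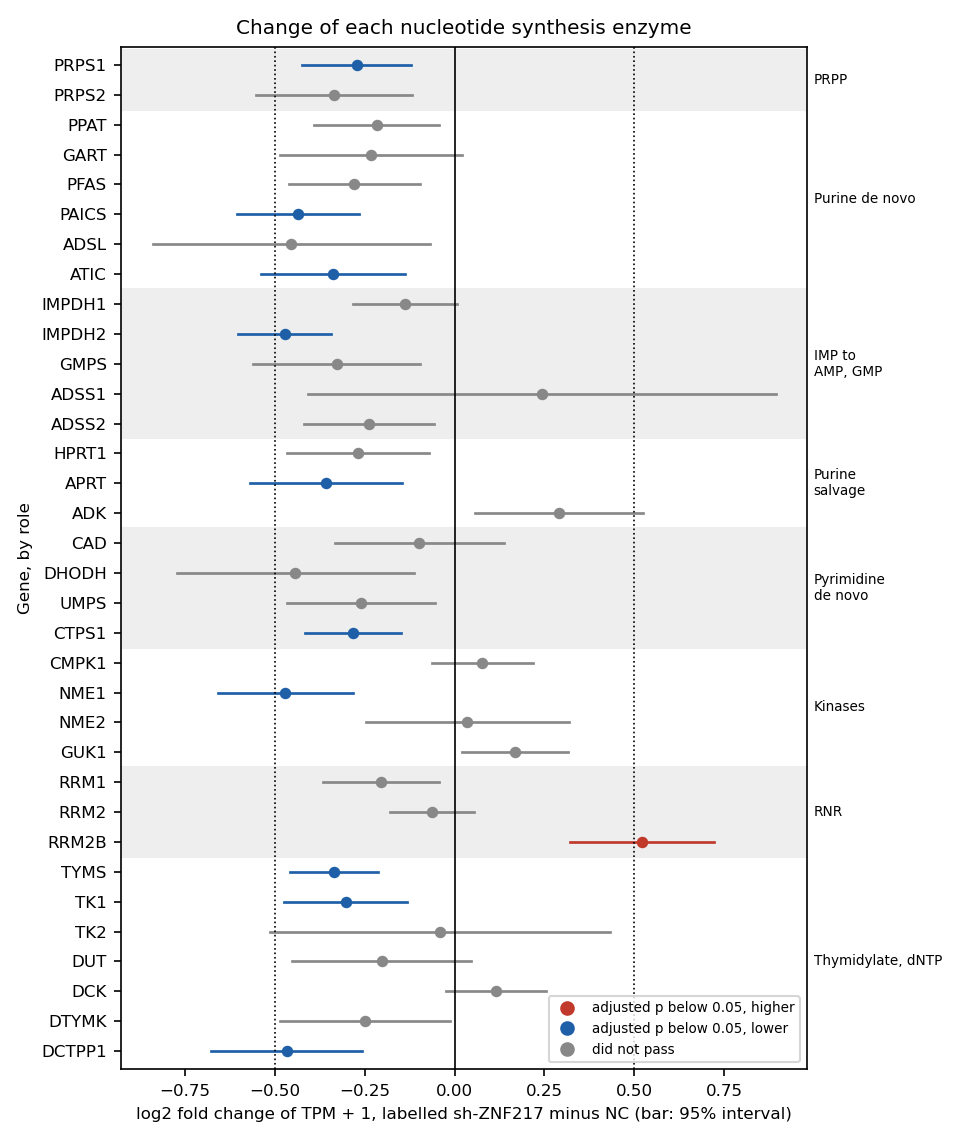
Fold change of each member on the log2(TPM + 1) scale, taken as libraries labelled sh-ZNF217 minus NC and ordered by role; points are estimates of the limma fit, bars their 95% intervals, dotted lines the fold minimum of 0.5 on either side, and colours show the adjusted p. The 10 blue genes lie between -0.47 and -0.27, short of the fold minimum, and RRM2B, at 0.52, is the 1 red gene.

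Of the 7 genes for thymidylate and the upkeep of the deoxynucleotide pool, 3 fell, beside 7.11% of all tested genes and 14.5% of those at 30 TPM or more. The sum of the 7 genes was 788 and 763 TPM in libraries labelled sh-ZNF217, against 949.8 and 917 TPM in NC. TYMS (chr18:657653-673578), the thymidylate synthase that fluorouracil blocks, had 294 and 283 TPM in libraries labelled sh-ZNF217, against 367 and 360.3 TPM in NC. It fell by 0.34 on the log2 scale (SE 0.05, limma adjusted p = 0.0133), a call lost without replicate 1 (adjusted p = 0.0584) or replicate 2 (0.0701) of the libraries labelled sh-ZNF217. ENOSF1, on the opposite strand, shares 39.9% of the exon bases of TYMS and had 38.2 and 39.1 TPM in libraries labelled sh-ZNF217, against 33.5 and 36.2 TPM in NC (0.15, adjusted p = 0.241). Since the use of strand is not given in the sources used here, reads of such partners cannot be told apart.

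TK1 (chr17:78174091-78187233), the thymidine kinase of S phase, had 69.6 and 72.7 TPM in libraries labelled sh-ZNF217, against 84.5 and 91.6 TPM in NC. It fell by 0.30 on the log2 scale (SE 0.07, limma adjusted p = 0.0395), a call lost whichever library was left out (adjusted p from 0.0557 to 0.141). DCTPP1 (chr16:30423615-30430030), which removes dCTP and its modified forms, had 83.0 and 96.5 TPM in libraries labelled sh-ZNF217, against 126 and 122 TPM in NC. It fell by 0.47 on the log2 scale (SE 0.08, adjusted p = 0.0223), a call lost without NC replicate 1 (0.0647) or without replicate 1 of the libraries labelled sh-ZNF217 (0.0710). ZNF771, on the opposite strand, shares 41.2% of its exon bases and was low, with a mean of 3.04 TPM in libraries labelled sh-ZNF217, against 4.01 TPM in NC.

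The remaining 4 genes of the group did not pass. DTYMK, the thymidylate kinase, had 62.1 and 63.5 TPM in libraries labelled sh-ZNF217, against 81.6 and 68.6 TPM in NC (log2 fold change -0.25, limma adjusted p = 0.130), and it passed without NC replicate 2 (-0.37, adjusted p = 0.0484). DUT, which removes dUTP, had 185 and 154 TPM in libraries labelled sh-ZNF217, against 204 and 186 TPM in NC (-0.20, adjusted p = 0.213). DCK, the kinase that activates cytarabine, was reproducible within each group at 88.9 and 88.5 TPM in libraries labelled sh-ZNF217, against 81.4 and 82.2 TPM in NC (0.12, adjusted p = 0.206). TK2, the mitochondrial thymidine kinase, was low and overlapped, at 5.68 and 4.76 TPM in libraries labelled sh-ZNF217, against 4.70 and 6.15 TPM in NC (-0.04, SE 0.19, adjusted p = 0.903).

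The start regions of DCTPP1 and TYMS are shown because both genes fell and carry a searched motif, in capitals. The DCTPP1 E-box (chr16:30429792-30429821, hg38, minus strand) is 9 bases before a RefSeq start, inside an intron of the canonical GENCODE transcript. The 120 bases before the start of TYMS (chr18:657533-657652, plus strand) hold an E2F-type word, GCGGGAAA, read on the other strand as TTTCCCGC, of the kind bound by E2F factors in S phase genes. E2F-type words were added after the values were seen: TTTCCCGC, TTTGGCGC, TTTCGCGC and TTTGCCGC on both strands were in windows of 5 members (DCK, DUT, GART, PRPS2 and TYMS, 15.6%), against 6.89% of tested genes with a window. Counted per window and not per gene, they were in 3.31% of all windows. TYMS is the 1 of the 5 members that passed the test, beside 10 of the 34 members and 7.11% of all tested genes that fell.
DCTPP1 E-box: ggagggttcctcCACGTGgtcgggaagcgg
TYMS: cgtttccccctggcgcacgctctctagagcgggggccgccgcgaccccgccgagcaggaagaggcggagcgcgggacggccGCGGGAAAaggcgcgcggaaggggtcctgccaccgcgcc

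In several pairs of related enzymes 1 gene passed the test and its partner did not, and the difference itself was taken within each library as log2(TPM + 1) of the first gene minus the second. With 2 libraries against 2, the two-sided exact permutation test cannot go below p = 0.33, so these are values without a call, over 6 pairs (p = 0.4 after adjustment for those that did not overlap). RRM2 was 7.23 and 7.37 times the level of RRM2B in libraries labelled sh-ZNF217, against 10.6 and 11.6 times in NC, a change of -0.58 in the log2 difference. NME1 was 0.475 and 0.543 times NME2 in libraries labelled sh-ZNF217, against 0.691 and 0.754 times in NC, a change of -0.51. The split of reads among NME1, NME2 and their read-through gene is uncertain, which also bears on this ratio. IMPDH1 was 0.316 and 0.349 times IMPDH2 in libraries labelled sh-ZNF217, against 0.263 in both NC libraries, a change of 0.34. In these 3 pairs the gap between the groups was wider than the spread within either.

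The balance of TK1 over TK2 changed by -0.26 and that of ADSS1 over ADSS2 by 0.48, both with a member of low level and with groups that only just missed overlapping. PRPS1 over PRPS2 changed by 0.06, with overlap (exact permutation p = 0.667).

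**Figure D3:**
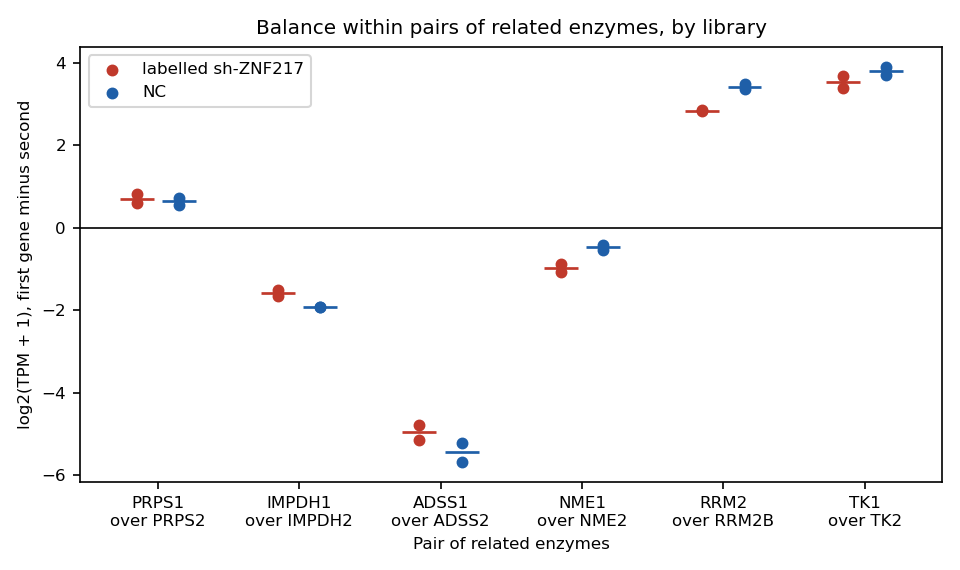
Within-library difference of log2(TPM + 1) between the genes of 6 related pairs, first gene minus second; each point is 1 library (libraries labelled sh-ZNF217 left of NC) and each line a group mean. RRM2 over RRM2B and NME1 over NME2 sit lower, by 0.58 and 0.51, and IMPDH1 over IMPDH2 sits higher, by 0.34, while PRPS1 over PRPS2 overlaps. The split of reads among NME1, NME2 and their read-through gene is uncertain.

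Many genes of cell division were also lower in the libraries labelled sh-ZNF217. For the counts that follow, 7.11% of all tested genes fell, and 14.5% of those at 30 TPM or more. Of 20 S phase genes 8 fell at an adjusted p below 0.05, with a median log2 fold change of -0.27 and a summed level of 2509.6 and 2512 TPM in libraries labelled sh-ZNF217, against 2983 and 2979 TPM in NC. The smallest p-values were those of MCM3 (-0.31), MCM2 (-0.34), MCM4 (-0.27) and PCNA (-0.27), which unwind DNA or clamp the polymerase at the fork. Of 16 G2 and mitosis genes 5 fell, with a median of -0.13 and a sum of 2886 and 2877 TPM in libraries labelled sh-ZNF217, against 3141 and 3266 TPM in NC, led by AURKB (-0.33), UBE2C (-0.38), CCNB1 (-0.29) and PLK1 (-0.29). CCNE2 (0.19, adjusted p = 0.0947) of the S phase list and CDK1 (0.17, adjusted p = 0.0721) of the mitosis list, named after their values were seen, had both libraries labelled sh-ZNF217 above both NC libraries and did not pass. For the 8 genes with the smallest p the adjusted p ran from 0.0354 to 0.123 when 1 library was left out. The part of cell cycle genes, of the mitochondrially encoded share and of the myelomonocytic marker sum in the changes of the nucleotide enzymes was not tested.

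The pathway's other genes were described with 4 lists of 59 genes drawn from textbook membership, of which 48 were tested. Here 25 had a negative and 23 a positive log2 fold change, with a median of -0.04. By the stricter rule 6 were higher and 1 lower, beside 6.26% and 2.46% of all tested genes. At an adjusted p below 0.05 with no fold minimum, 7 rose and 8 fell, beside 9.77% and 7.11% of all tested genes. Breakdown and clean-up held most of the higher ones, with 4 changed of 19 tested and a median of 0.23. AMPD3, which deaminates AMP, had 26.6 and 27.4 TPM in libraries labelled sh-ZNF217, against 13.5 and 11.8 TPM in NC (1.04, limma adjusted p = 0.0058), the 1 of the 4 that passed whichever library was left out (adjusted p from 0.0066 to 0.0481). DPYD, the first enzyme of pyrimidine breakdown, had 20.4 and 19.2 TPM in libraries labelled sh-ZNF217, against 11.4 and 12.6 TPM in NC (0.67, adjusted p = 0.0158). SAMHD1, which splits dNTPs, had 8.42 and 9.14 TPM in libraries labelled sh-ZNF217, against 4.73 and 5.16 TPM in NC (0.72, adjusted p = 0.0282). ADA2, a secreted adenosine deaminase of monocytes, had 212 and 229.8 TPM in libraries labelled sh-ZNF217, against 158 and 151 TPM in NC (0.51, adjusted p = 0.0089). All 3 lost the call without replicate 2 of the libraries labelled sh-ZNF217, at adjusted p = 0.0668, 0.116 and 0.0503, and DPYD also lost it without replicate 1 (0.0810) and SAMHD1 whichever library was left out (0.0625 to 0.116). ADA2 was short of the fold minimum without NC replicate 2 (0.48) and under median-of-ratios scaling (0.49).

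The 24 tested genes of salvage and interconversion went both ways, with 2 that rose and 6 that fell at an adjusted p below 0.05. Over all tested genes the shares were 9.77% and 7.11%. UPP1, which splits uridine, had 34.5 and 35.3 TPM in libraries labelled sh-ZNF217, against 22.3 and 23.3 TPM in NC (0.60, limma adjusted p = 0.0107, and 0.0583 to 0.0622 without 1 or the other of those labelled sh-ZNF217). AK8, an adenylate kinase of cilia, was low, at 6.48 and 9.41 TPM in libraries labelled sh-ZNF217, against 2.17 and 2.18 TPM in NC (1.48, adjusted p = 0.0133, and 0.0633 without replicate 2 of those labelled sh-ZNF217). On the lower side, NME4, the mitochondrial nucleoside diphosphate kinase, had 137 and 132 TPM in libraries labelled sh-ZNF217, against 188 and 187 TPM in NC (-0.48, adjusted p = 0.0070). PNP, the purine nucleoside phosphorylase, fell by 0.38 (adjusted p = 0.0107), the uridine kinase UCK2 by 0.42 (0.0186) and the deoxycytidylate deaminase DCTD by 0.28 (0.0320). Of these 4, NME4 passed whichever library was left out (adjusted p from 0.0172 to 0.0484), while the adjusted p reached 0.0615 for PNP, 0.0735 for UCK2 and 0.1204 for DCTD.

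Among the nucleotidases, NT5C2, known for inactivating thiopurine drugs in leukemia, had 165 and 165 TPM in libraries labelled sh-ZNF217, against 139 and 138 TPM in NC (log2 fold change 0.25, limma adjusted p = 0.0285, and 0.0862 to 0.106 without 1 library). NT5C, another nucleotidase, named after its values were seen, went the other way. It had 25.6 and 27.5 TPM in libraries labelled sh-ZNF217, against 33.2 and 40.1 TPM in NC (-0.45, limma adjusted p = 0.0495). NT5C3A, NT5C3B and NT5M did not pass. SLC29A1, the transporter that carries nucleosides and cytarabine into cells, had 119.6 and 114 TPM in libraries labelled sh-ZNF217, against 175 and 189 TPM in NC. It fell by 0.63 on the log2 scale (SE 0.06, adjusted p = 0.0057) and passed whichever library was left out (adjusted p from 0.0066 to 0.0438), the 1 gene of the 4 lists that was lower by the stricter rule.

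**Figure D4:**
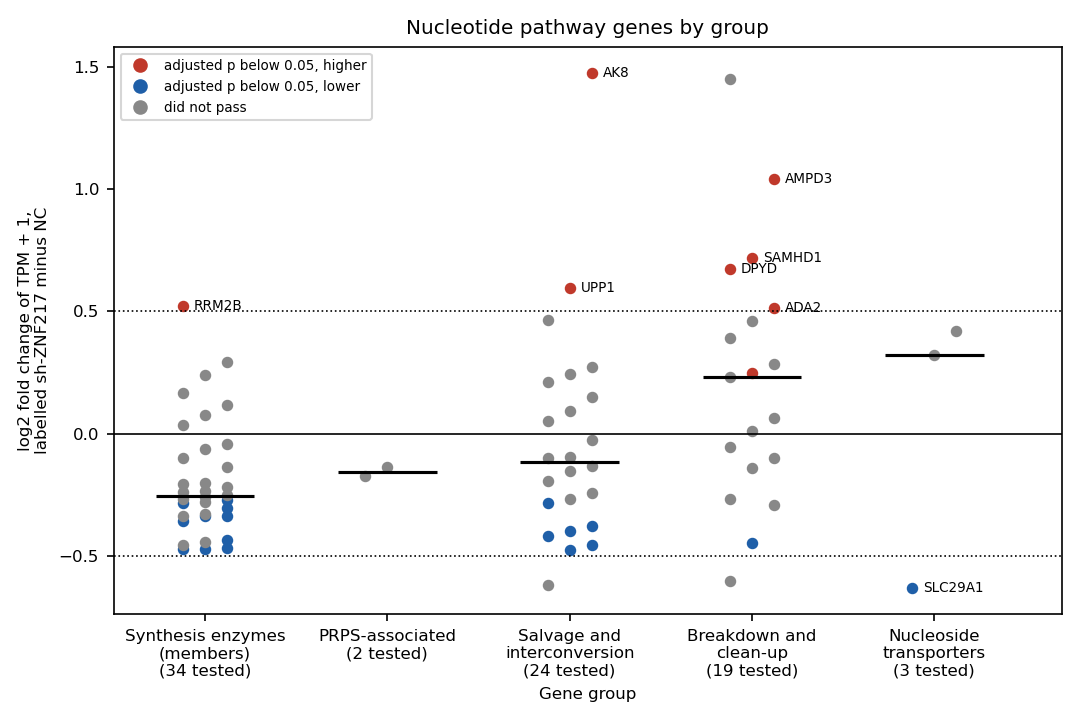
Difference in log2(TPM + 1) between libraries labelled sh-ZNF217 and NC (positive where NC is lower), for the 34 members and the 48 tested genes of 4 other nucleotide lists; each point is 1 gene, black lines are medians and dotted lines the fold minimum of 0.5 on either side. The members' median is -0.25 and that of breakdown and clean-up genes 0.23, and the labelled genes are those past the fold minimum at an adjusted p below 0.05.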

How the data were processed

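Total RNA of U937 cells was extracted with Trizol, made into Illumina TruSeq libraries and sequenced. By the submitters' processing notes, the authors aligned the reads with HISAT2 2.0.5 to hg38, and they then summarised them per gene into the deposited table, whose values were identified as TPM from column totals of 998932 to 999282. Its header names no unit, and the study's methods name the measure FPM. TPM keeps no depth, so read depth is unknown and no counting interval could be given, and abundant genes that rise lower the rest. For the quantifier, the annotation release and the use of strand, nothing is given in the sources used here. The column names hold parts that the labels do not explain, and NC or ZNF with a replicate number was used to match columns to groups.

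Genes were named through GENCODE 44 (16143 of 17656 identifiers). Genes at 1 TPM or more in 2 or more libraries were compared as log2(TPM + 1) with limma 3.58.1 in R 4.3.3 (trended, robust empirical Bayes), group alone as a term, and Benjamini-Hochberg adjustment over 14582 genes. A fold change on this scale understates that of low genes. The fit was tested on simulated data. The members and lists were chosen with earlier results of these data known. All members are named, with full statistics for those at an adjusted p below 0.05 and for related pairs; of the other pathway lists, those changed and the 6 further ones with the smallest p, of which 1 is not reported here; up to 4 of each cell cycle list; and MYC and ZNF217. Alternatives varied the pseudocount, filter, scaling, variance model, replicate block and single libraries. For 11 members the annotation names pseudogenes, up to 10 for 1 gene, whose reads could be shared. Promoter windows are those of RefSeq (GRCh38.p14).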

Additional observations from a re-analysis of the deposited data

How the results depend on the processing

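The sign of 31 of the 34 members was kept under each of the 12 alternatives that tested them (ADSS1 was left out by the filter of 5 TPM). CAD turned to 0.0052 without NC replicate 1 (-0.20 to 0.0052 over the 4 fits without 1 library), TK2 to 0.12 without NC replicate 2 and 0.07 without replicate 2 of the libraries labelled sh-ZNF217 (-0.20 to 0.12), and NME2 to -0.12 without NC replicate 2 and -0.04 without replicate 1 of those labelled sh-ZNF217 (-0.12 to 0.19). With a plain limma variance model, 723 genes changed in place of 1272 (560 higher in place of 913, 163 lower in place of 359), and 0 members passed the adjusted p in either direction, with 15 lower and 1 higher at an unadjusted p below 0.05, so 0 members changed. RRM2B also missed the fold minimum under median-of-ratios scaling (0 members changed, 0 higher, with 23 lower and 2 higher at an unadjusted p below 0.05), and 0 members passed a log2 fold change above 1. Without mitochondrially encoded genes 7 members passed the adjusted p (6 lower), and the median was -0.22. With protein-coding genes alone 16 passed (15 lower). Under median-of-ratios scaling 2 other pathway genes were lower by the stricter rule and 5 higher, as ADA2 (0.49) lost its call. The shares of all tested genes that passed with no fold minimum are not given here for these fits, and the cause of these differences was not tested.

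Leaving out 1 library at a time gave 430 to 1029 changed genes (294 to 712 higher, 129 to 317 lower). Members changed were 1 to 2 (0 to 1 higher, 1 to 2 lower; lower were ADSL without NC replicate 1, NME1 without NC replicate 2, PAICS and IMPDH2 without replicate 1 and DCTPP1 without replicate 2 of the libraries labelled sh-ZNF217), members at an adjusted p below 0.05 were 2 to 8 (0 to 1 higher, 2 to 7 lower), the median was -0.27 to -0.22, and other pathway genes changed were 2 to 7 (1 to 5 higher, 1 to 2 lower). These fits have fewer libraries, and a lone library is assumed to vary like the other group.

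Same-numbered libraries did not deviate together (correlation -0.0053 over 14582 genes), so no shared effect of the replicate number was seen. Whether same-numbered libraries were prepared together is not labelled, and the correlation cannot tell. With the replicate block, 1049 genes changed, 8 members passed the adjusted p (7 lower), and RRM2B remained changed. TPM keeps no depth, so what sequencing depth limits cannot be stated.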

Other observations

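MYC, whose protein binds E-boxes and is known to drive nucleotide synthesis genes, had 80.0 and 88.2 TPM in libraries labelled sh-ZNF217, against 158 and 150.4 TPM in NC. Its mRNA fell by 0.87 on the log2 scale (SE 0.07, limma adjusted p = 0.0034), and it passed whichever library was left out (adjusted p from 0.0045 to 0.0367). The 7 members with an E-box in a promoter window, of which PAICS and PPAT share the same one, include 4 that fell and 3 that did not pass (PPAT, DCK and DHODH). Of all 34 members 10 fell, as did 7.11% of all tested genes and 14.5% of those at 30 TPM or more. The share that fell among all genes with an E-box was not taken, and a part of MYC in the members' levels was not tested. PRPS1, APRT, CTPS1, TYMS and TK1 fell with no E-box in their windows. Only the exact word CACGTG in these windows was searched, so other forms of the site and sites elsewhere were not looked at.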
